A study of Mus musculus with 44 samples.

Results

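The 10 genes described here carry, store and sense iron in the mouse liver, or encode hepcidin, the hormone that limits iron entry into blood. They were taken by name as Hamp, Hamp2, Bmp6, Tfr2, Trf, Tfrc, Scara5, Fth1, Ftl1 and Slc40a1, out of 35249 genes in the deposited count table. All 10 were in the table, and all 10 passed the filter on low counts that left 14862 genes for testing. RNA from whole liver was sequenced in 44 libraries from mice that received their diet from 2 months of age for 6 months. The diets were normal chow as control, or feeds lacking choline that were low in fat (CD-LFD) or high in fat (CD-HFD). Each diet was given to wild-type (WT) mice and to mice without Ripk3 (Ripk3KO) or without Mlkl (MlklKO), so that a kinase of necroptosis, an inflammatory form of cell death, or its executioner protein was missing. The WT groups had 6 libraries on each diet. Ripk3KO had 6, 3 and 4 libraries, and MlklKO had 6, 4 and 3, on control, CD-LFD and CD-HFD. No group carried a further allele or agent in the labels, which describe the knockouts only by gene and give no cell type to which the loss is limited.

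Hepatocytes make most of the body's hepcidin from Hamp, and the peptide binds ferroportin, the product of Slc40a1, so that cells export less iron. Bmp6, secreted by sinusoidal endothelial cells, switches Hamp on through BMP receptors and SMAD proteins, and transferrin receptor 2, hemojuvelin and inflammatory STAT3 signals adjust that drive. Iron travels in blood on transferrin, enters cells by transferrin receptor 1, and is kept inside them in a shell of heavy and light ferritin chains.

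The promoters of the hepcidin gene pair are shown because the diet results below concern both genes, which lie near each other on chromosome 7. Each run is the 250 bases before the start of the gene, from RefSeq on GRCm38.p6, on the minus strand. The Hamp window is chr7:30944030-30944279 and the Hamp2 window is chr7:30924182-30924431. Capitals mark GGCGCC, a BMP-responsive SMAD motif, and TTCTTGGAA, a match to the STAT motif TTCNNNGAA.
Hamp: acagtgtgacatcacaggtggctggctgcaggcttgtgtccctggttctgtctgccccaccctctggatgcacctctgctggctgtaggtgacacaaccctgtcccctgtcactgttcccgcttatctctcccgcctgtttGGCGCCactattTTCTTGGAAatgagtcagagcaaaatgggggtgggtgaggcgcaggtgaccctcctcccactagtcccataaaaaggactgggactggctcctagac
Hamp2: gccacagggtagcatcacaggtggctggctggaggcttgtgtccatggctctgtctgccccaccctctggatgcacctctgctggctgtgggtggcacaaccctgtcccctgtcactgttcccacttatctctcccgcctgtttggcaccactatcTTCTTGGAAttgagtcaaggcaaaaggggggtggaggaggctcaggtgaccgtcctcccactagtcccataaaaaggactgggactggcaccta
The windows align with an offset of 3 bases, and 227 of 247 compared bases, or 91.9%, are the same. Hamp2 holds the STAT match and lacks GGCGCC, where it differs from Hamp by G145A, counted from 1 at the 5′ end of the Hamp window. Searched on both strands, GGCGCC was in 9.59% and TTCNNNGAA in 7.02% of 32841 promoter windows of the same length, and the 2 motifs share no bases here. A match is a description of the letters and no measure of binding.

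Total counts lay between 2476268 and 12471844 in 43 libraries, and 1 library, WT CD-LFD replicate 3, had 88204703. Hepatocyte markers had the highest summed level of the marker lists in every group, as a liver sample would have, and no listed marker of any cell type was at 0 in all libraries of a group. The targeted gene stood out against the label in 2 knockout libraries. The library labelled Ripk3KO control replicate 5 had 9 counts of Ripk3, against 0 to 2 in the other Ripk3KO libraries. WT control libraries had 3 to 20 counts, so it lay within the WT range. The library labelled MlklKO CD-HFD replicate 1 had Mlkl at 14.4 CPM of its total count, without TMM scaling, against 6.02 and 3.55 in the other libraries of its group and 17.2 to 22.6 in WT CD-HFD. On control chow Mlkl did not part the genotypes by this measure, at 1.24 to 2.61 in MlklKO and 2.02 to 5.5 in WT, so it checks those MlklKO labels only weakly. The ratio of the clock genes Arntl and Dbp, which peak at opposite times of day, was high in 11 libraries, all of them WT, and low in the other 33. The classes were split at the widest gap in the log2 ratio that left at least 5 libraries on each side, which was 1.032. The log2 ratio ran from -2.68 to 2.73 in the high class and from -8.01 to -3.71 in the low class. In the low class the 2 WT control libraries were at -5.84 and -8.01. The MlklKO control libraries were at -5.01 to -3.71, so the class matches clock phase only roughly. All 6 WT CD-LFD libraries were in the high class and all knockout libraries in the low class, so genotype and this class cannot be told apart on CD-LFD. No comparison with WT CD-LFD could therefore be run in the low clock class. Within WT, CD-LFD and CD-HFD nearly coincide with the 2 classes, so diet and class can hardly be told apart there. Within a knockout, the low class alone or class as a covariate keeps the same libraries as the main fit, so neither compares clock classes. Only 2 of the 6 WT control libraries and 5 of the 6 WT CD-HFD libraries were in the low class, so each value below for the low clock class against WT control rests on 2 control libraries, and replicates 5 and 6 are not among them. WT control replicates 5 and 6 had 1.32% and 1.66% of their counts in predicted genes, against 0.887% to 0.986% in the other 4 WT control libraries. The labels do not say whether each library is a separate mouse, so p-values measure the spread between libraries.

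Values below are scaled CPM, counts relative to library size adjusted by the TMM method, differences are log2 ratios with their standard error, and tests are edgeR's quasi-likelihood test fitted on all 44 libraries. A gene was called changed when its Benjamini-Hochberg adjusted p over all 14862 genes was under 0.05. Summed cell type markers differed between the diets, and in whole tissue fewer cells of a type and less RNA per cell cannot be told apart.

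Tfr2, the hepatocyte iron sensor, fell in every genotype on both choline-deficient diets, and Fth1, the heavy ferritin chain, rose in every genotype on CD-HFD, with calls that some settings ended in WT and MlklKO. Hamp2 was called lower on CD-HFD than on control in all 3 genotypes. So was Hamp, but in WT its difference went to about 0 without WT control replicates 5 and 6 or in the low clock class, and its knockout calls were lost in several settings. Hamp2 was also far below its CD-LFD level, while its call against control was lost in 5 of 8 settings in Ripk3KO and in the low clock class in WT. Across genotypes Scara5, a ferritin-binding scavenger receptor, was higher in knockout livers in all 6 comparisons and called in 5, of which both on CD-LFD were lost with clock class as a covariate and that of Ripk3KO on control in other settings. The transport genes Trf and Tfrc passed the test in none of the 15 comparisons of diet or genotype.

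**Figure D1:**
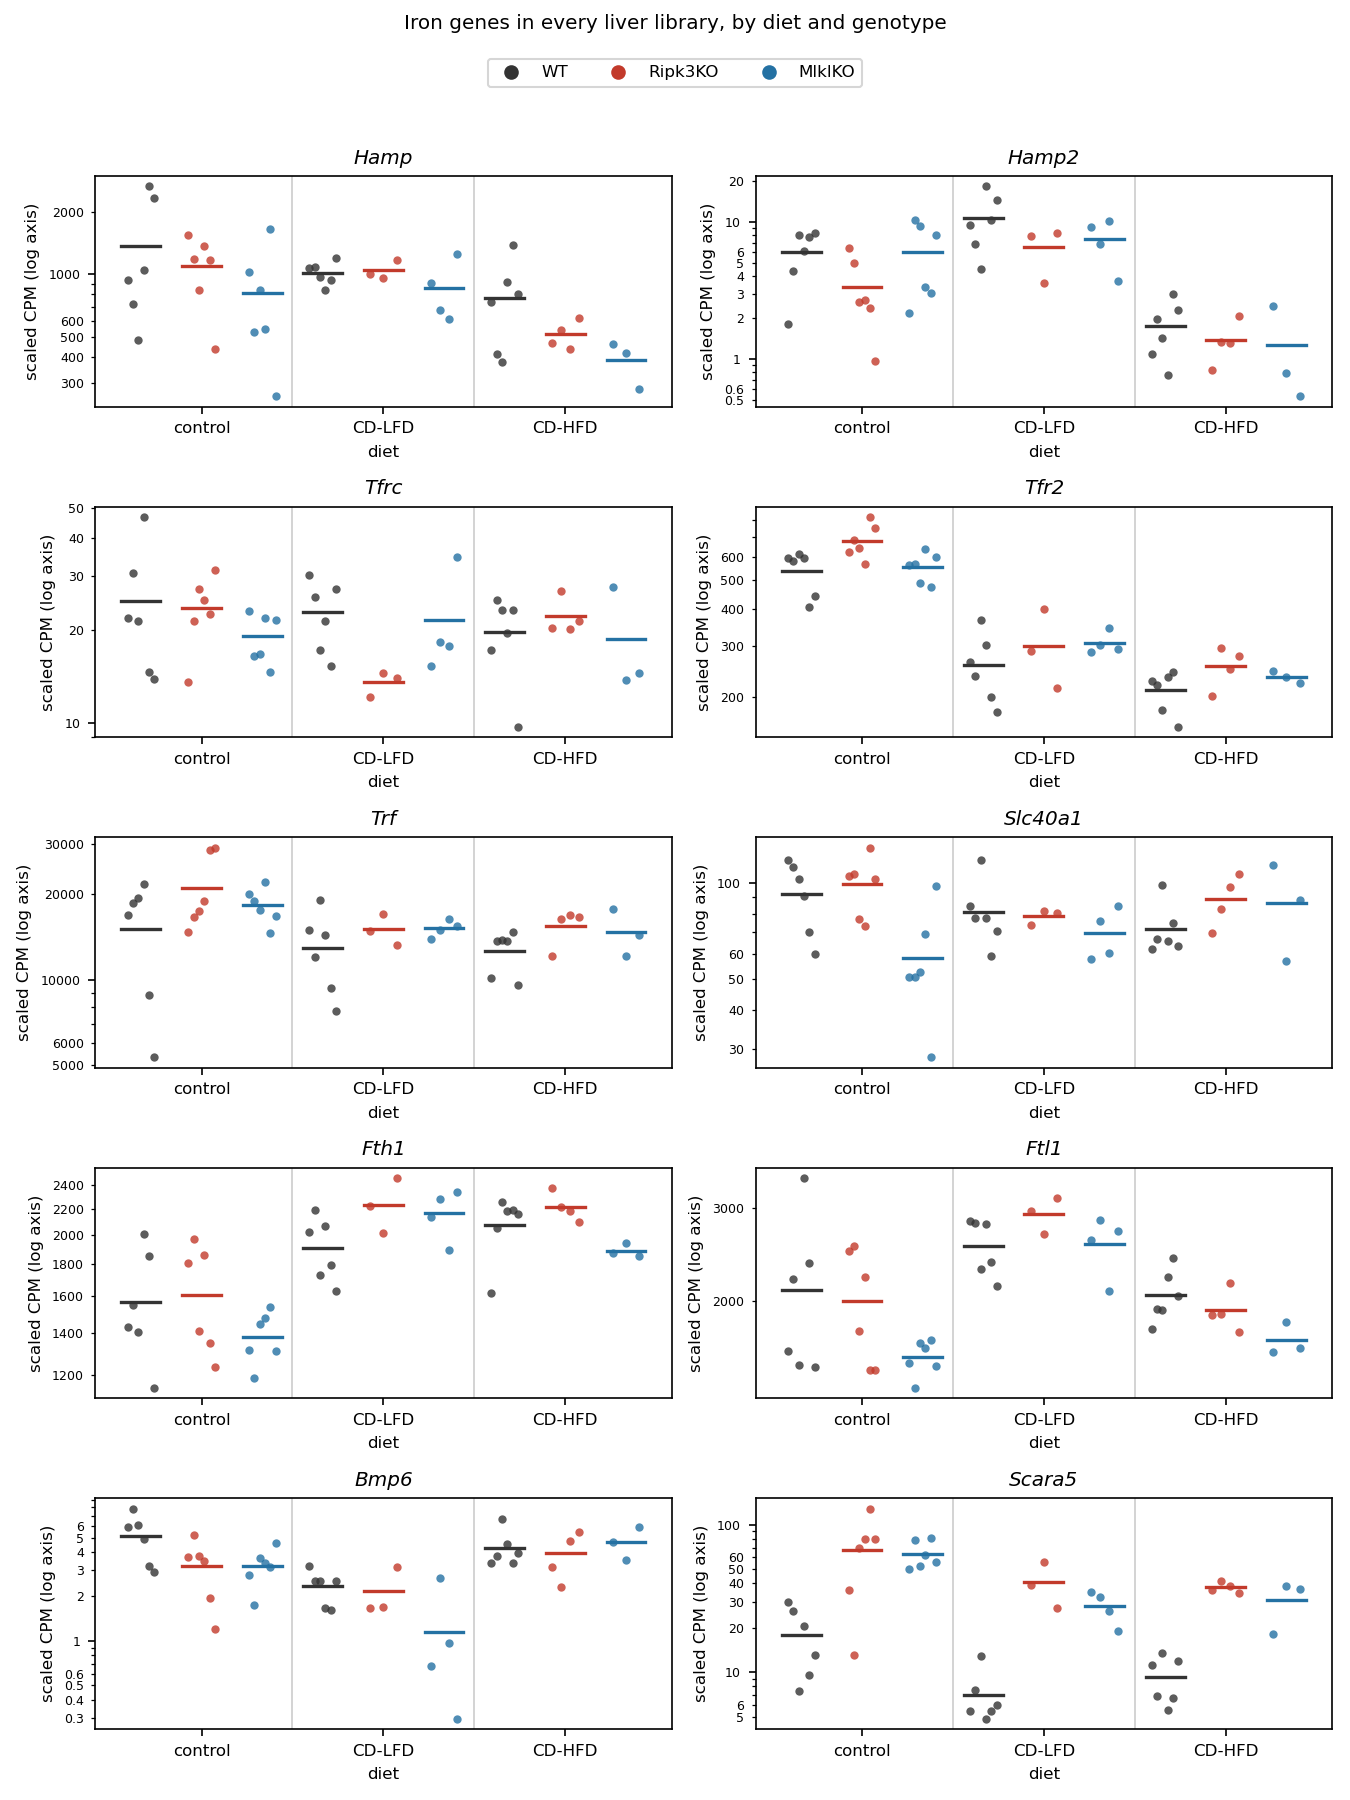
Scaled CPM of each of the 10 genes in every library, on a log axis, by genotype and diet; each point is 1 library and each bar the group mean. Tfr2 on control chow, 406 to 819 over all genotypes, lies above every library of the same genotype on CD-LFD or CD-HFD, and Scara5 in Ripk3KO and MlklKO livers lies mostly above WT.

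The levels of the 10 genes in WT control livers spanned a wide range once divided by transcript length. Trf was highest at 5873 scaled CPM per kilobase, followed by Hamp at 3318, Ftl1 at 2167 and Fth1 at 1046, all means of 6 libraries. Tfr2 had 175 scaled CPM per kilobase, Slc40a1 27.4 and Hamp2 13.9. Tfrc at 5.09, Scara5 at 4.69 and Bmp6 at 1.43 were the lowest on this scale.

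Hamp, which encodes hepcidin, ranged in WT control livers from 484 to 2639 scaled CPM with a median of 997. WT CD-LFD libraries ran from 843 to 1197 with a median of 1019, and WT CD-HFD libraries from 381 to 1387 with a median of 772. The WT groups overlapped, and the control group was by far the most spread. Hamp fell 1.76-fold on CD-HFD against control in WT, a log2 difference of -0.81 ± 0.346 (SE; adjusted p = 0.0496). On CD-LFD the WT difference from control was -0.42 (adjusted p = 0.382). WT control replicates 5 and 6 carried much of the CD-HFD difference. Without both of them the log2 difference was -0.05 (adjusted p = 0.914), and without replicate 5 or replicate 6 alone the adjusted p was 0.22 or 0.157. The call was also lost without WT CD-HFD replicate 1, 2, 3, 4 or 6 (adjusted p 0.0755, 0.118, 0.12, 0.0525 and 0.0677) and in the 33 libraries of the low clock class (-0.0, adjusted p = 0.996). Of the 7 settings not yet given, 1 kept it (adjusted p 0.0357 to 0.385).

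In Ripk3KO livers Hamp ran from 436 to 1552 scaled CPM on control with a median of 1173, and was 1003, 957 and 1172 on CD-LFD. The 4 CD-HFD values were 468, 542, 439 and 614, all below the 3 CD-LFD values and at the low end of the control range. Hamp fell 2.11-fold on CD-HFD against control (log2 -1.08 ± 0.398, adjusted p = 0.024). The call was lost without Ripk3KO control replicate 1 (adjusted p = 0.0508) or Ripk3KO CD-HFD replicate 1 or 3 (0.0613 and 0.065), and with scaling by library size alone (0.251). In MlklKO livers Hamp ran from 260 to 1652 on control with a median of 695, and was 907, 675, 613 and 1245 on CD-LFD. The CD-HFD values of 465, 419 and 280 were below every CD-LFD value and overlapped the control range. Hamp fell 2.09-fold on CD-HFD against control (log2 -1.06 ± 0.442, adjusted p = 0.0467). The call was lost without MlklKO control replicate 1, 3 or 5 (adjusted p 0.0779, 0.059 and 0.163) or any one CD-HFD library. Among those, omission of replicate 2 or 4 gave 0.0776 or 0.173, and 0.0614 was reached on omitting the library labelled MlklKO CD-HFD replicate 1. The other settings kept it in 4 of 8 cases (adjusted p 0.0215 to 0.317).

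Although the groups did not overlap in either knockout, Hamp did not pass the test between CD-HFD and CD-LFD. The log2 difference was -1.02 ± 0.452 in Ripk3KO (adjusted p = 0.164) and -1.15 ± 0.469 in MlklKO (adjusted p = 0.0689). In WT it was -0.39 (adjusted p = 0.472). Fitted on the 2 groups alone, the difference was called in Ripk3KO (-1.01, adjusted p = 0.00184) and in MlklKO (-1.18, adjusted p = 0.00411). The low clock class alone called it in MlklKO (-1.17, adjusted p = 0.0338), on the same MlklKO libraries as the main fit. In the order of the 9 group means, from 388 in MlklKO CD-HFD to 1360 in WT control, the 3 lowest were the CD-HFD groups. Only the step from MlklKO CD-HFD to Ripk3KO CD-HFD was larger than the SD of its 2 groups.

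Hamp2, the second mouse hepcidin gene, was a minor transcript beside Hamp, with 4 to 392 counts in a library. WT control livers had 1.79 to 8.31 scaled CPM with a median of 6.95, WT CD-LFD livers 4.5 to 18.2 with a median of 9.94, and WT CD-HFD livers 0.757 to 2.98 with a median of 1.68. Every WT CD-HFD library was below every CD-LFD library, and a control library at 1.79 reached into the CD-HFD range. Hamp2 fell 3.31-fold on CD-HFD against control (log2 -1.73 ± 0.436, adjusted p = 0.00112) and was 5.86-fold lower than on CD-LFD (-2.55 ± 0.413, adjusted p = 1.22e-05). The first call was lost in the low clock class alone (-1.45, adjusted p = 0.0507). The second was kept under every alternative run and with each library left out, but could not be tested in the low clock class. The CD-LFD level differed from control by 0.82 (adjusted p = 0.116), and was called higher with library size alone (1.14, adjusted p = 0.0282) and without WT CD-LFD replicate 3 (1.02, adjusted p = 0.0418).

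In Ripk3KO livers Hamp2 ran from 0.963 to 6.41 scaled CPM on control with a median of 2.64, was 7.92, 3.58 and 8.31 on CD-LFD, with 0.832, 1.32, 1.31 and 2.05 on CD-HFD. CD-HFD and CD-LFD did not overlap, with a 4.69-fold lower level on CD-HFD (log2 -2.23 ± 0.552, adjusted p = 0.0073) that was kept under every alternative. Against control the level fell 2.33-fold (-1.22 ± 0.513, adjusted p = 0.048). That call was lost without Ripk3KO control replicate 1, 2 or 4 (adjusted p 0.142, 0.0956 and 0.0505), without CD-HFD replicate 1, 2 or 3 (0.117, 0.0908 and 0.0957), and 3 of 8 other settings kept it (0.0396 to 0.269). On CD-LFD the difference from control was 1.01 (adjusted p = 0.124), called with library size alone (1.34, adjusted p = 0.0359).

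In MlklKO livers Hamp2 ran from 2.15 to 10.4 scaled CPM on control with a median of 5.7, was 9.16, 6.86, 10.1 and 3.72 on CD-LFD, with 2.44, 0.783 and 0.533 on CD-HFD. The CD-HFD value of 2.44 came from the library labelled MlklKO CD-HFD replicate 1, and was the one that reached the control range. Hamp2 fell 5.05-fold against control (log2 -2.34 ± 0.6, adjusted p = 0.00142) and was 6.24-fold lower than on CD-LFD (-2.64 ± 0.62, adjusted p = 0.00161). Without that library the differences were -3.18 (adjusted p = 0.000692) and -3.48 (adjusted p = 0.00109). Counts of Hamp2 as a share of Hamp counts had medians of 0.471%, 0.997% and 0.248% in WT on control, CD-LFD and CD-HFD. The same medians were 0.265%, 0.709% and 0.271% in Ripk3KO and 0.859%, 1.01% and 0.19% in MlklKO, highest on CD-LFD in each genotype. The genes resemble each other closely, and how reads that match both were counted is not given in the sources used here, so the Hamp2 level is uncertain. No neighbouring pair in the order of its 9 group means, from 1.25 in MlklKO CD-HFD to 10.6 in WT CD-LFD, differed beyond the larger SD.

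Bmp6, the ligand that induces hepcidin, was a low-count gene with 2 to 221 counts in a library. WT livers had 2.93 to 7.82 scaled CPM on control with a median of 5.43, 1.61 to 3.21 on CD-LFD with a median of 2.53, and 3.38 to 6.65 on CD-HFD with a median of 3.85. The CD-LFD libraries stood low, below all CD-HFD libraries and overlapping the low end of control. Bmp6 fell 2.22-fold on CD-LFD against control (log2 -1.15 ± 0.318, adjusted p = 0.00577). That call was kept under every alternative run and with each library left out, but could not be tested in the low clock class. Bmp6 was 1.8-fold higher on CD-HFD than on CD-LFD (0.85 ± 0.306, adjusted p = 0.0402). This second call was lost without WT CD-LFD replicate 2, 3, 4, 5 or 6 (adjusted p 0.0523, 0.0587, 0.0878, 0.0832 and 0.0507), without WT CD-HFD replicate 3, 4 or 6 (0.132, 0.0634 and 0.0502), and in 2 of 7 other settings (adjusted p 0.0103 to 0.106 over all of them).

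In MlklKO livers Bmp6 ran from 1.74 to 4.62 scaled CPM on control with a median of 3.26. It was 0.678, 2.68, 0.962 and 0.298 on CD-LFD, with 4.7, 3.52 and 5.86 on CD-HFD, so that the 2 choline-deficient diets did not overlap. Bmp6 fell 2.89-fold on CD-LFD against control (log2 -1.53 ± 0.402, adjusted p = 0.00294) and was 4.15-fold higher on CD-HFD than on CD-LFD (2.05 ± 0.441, adjusted p = 0.000636). The second difference was 2.04 when the library labelled MlklKO CD-HFD replicate 1 was left out (adjusted p = 0.00197). Without MlklKO CD-LFD replicate 2, the highest of its group, the differences grew to -2.31 and 2.84. In Ripk3KO livers the values were 1.2 to 5.24 on control with a median of 3.58, 1.67, 1.69 and 3.17 on CD-LFD, with 3.16, 2.3, 4.72 and 5.46 on CD-HFD, all overlapping. The log2 differences there were -0.48 for CD-LFD against control (adjusted p = 0.402) and 0.78 for CD-HFD against CD-LFD (adjusted p = 0.265). Library size alone called Bmp6 higher on CD-HFD than on control in Ripk3KO (0.83, adjusted p = 0.0422) and MlklKO (1.05, adjusted p = 0.0189), where the TMM values were 0.3 and 0.52 (adjusted p 0.497 and 0.258). Between genotypes, MlklKO differed from WT by -0.69 on control (adjusted p = 0.101) and -1.07 on CD-LFD (adjusted p = 0.157). The first was called without WT control replicates 5 and 6 (-0.92, adjusted p = 0.0445) and the second without MlklKO CD-LFD replicate 2 (-1.85, adjusted p = 0.0197). The 6 markers of sinusoidal endothelial cells, which secrete Bmp6, had summed means of 207, 128 and 121 scaled CPM in WT on control, CD-LFD and CD-HFD, and 165, 136 and 171 in MlklKO. Their part in the Bmp6 result was not tested. The order of the 9 group means, from 1.16 in MlklKO CD-LFD to 5.15 in WT control, had no step beyond the larger SD.

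Tfr2 encodes transferrin receptor 2, through which hepatocytes sense iron-loaded transferrin. WT livers had 406 to 612 scaled CPM on control with a median of 587, 179 to 365 on CD-LFD with a median of 250, and 159 to 244 on CD-HFD with a median of 224. Every WT library on a choline-deficient diet was below every control library. Tfr2 fell 2.55-fold on CD-HFD (log2 -1.35 ± 0.154, adjusted p = 1.64e-09) and 2.09-fold on CD-LFD (-1.06 ± 0.153, adjusted p = 1.39e-06).

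In Ripk3KO livers Tfr2 was 566 to 819 scaled CPM on control with a median of 664, 287, 398 and 215 on CD-LFD, with 203, 294, 249 and 277 on CD-HFD. MlklKO libraries had 475 to 640 on control with a median of 565, 286, 302, 344 and 293 on CD-LFD, with 245, 234 and 224 on CD-HFD. Neither knockout had a library on a choline-deficient diet that reached its control range. The log2 differences from control were -1.41 ± 0.177 on CD-HFD (adjusted p = 1.66e-08) and -1.19 ± 0.196 on CD-LFD (adjusted p = 2.05e-05) in Ripk3KO. In MlklKO they were -1.24 ± 0.196 (adjusted p = 1.62e-06) and -0.86 ± 0.173 (adjusted p = 0.000195). All 6 calls were kept under every alternative run and with each library left out, but WT CD-LFD could not be tested in the low clock class. CD-HFD was not distinguished from CD-LFD by the test in any genotype, although the 2 MlklKO groups did not overlap (log2 -0.38, adjusted p = 0.166). Fitted on those 2 groups alone, the MlklKO difference was called (-0.41, adjusted p = 0.0317).

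The 6 hepatocyte markers had summed means of 119579, 83606 and 65539 scaled CPM in WT on control, CD-LFD and CD-HFD, 118969, 95271 and 73129 in Ripk3KO, with 108922, 122821 and 74649 in MlklKO. They were below control wherever Tfr2 was, except in MlklKO on CD-LFD, where the mean of Tfr2 was 306 ± 26.1 (SD, n = 4) against 556 ± 63.5 on control (SD, n = 6). The part of hepatocyte content in the Tfr2 result was not tested. In the order of the 9 group means of Tfr2, from 211 in WT CD-HFD to 682 in Ripk3KO control, 2 steps exceeded the larger SD. These were the step from MlklKO CD-LFD to WT control, which parts all choline-deficient from all control groups, and the step from MlklKO control to Ripk3KO control.

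Trf encodes transferrin, the iron carrier of plasma made by hepatocytes. WT livers had 5330 to 21692 scaled CPM on control with a median of 17710, 7735 to 19100 on CD-LFD with a median of 13178, and 9613 to 14708 on CD-HFD with a median of 13702. Ripk3KO livers had 14671 to 29115 on control with a median of 18207, then 14855, 17041 and 13260 on CD-LFD, with 12068, 16378, 16916 and 16605 on CD-HFD. MlklKO livers had 14646 to 22022 on control with a median of 18247, then 13934, 14966, 16299 and 15401 on CD-LFD, with 17753, 12106 and 14330 on CD-HFD. In each genotype both choline-deficient medians lay below the control median and the ranges overlapped. Trf passed the test in 0 of the 15 comparisons. Leaving out WT control replicates 5 and 6 together gave log2 differences from WT control of -0.60 on CD-HFD (adjusted p = 0.0107) and -0.57 on CD-LFD (adjusted p = 0.0207). In the low clock class Trf was called lower on CD-HFD than on control in WT (-0.66, adjusted p = 0.0187) and in Ripk3KO (-0.43, adjusted p = 0.0492). The Ripk3KO libraries in that fit are the same as in the main fit. The group means spanned 1.66-fold, and 1 step, from Ripk3KO CD-HFD to MlklKO control, exceeded the larger SD.

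Tfrc encodes transferrin receptor 1, the entry route for transferrin-bound iron. WT livers had 13.9 to 46.7 scaled CPM on control with a median of 21.7, 15.3 to 30.3 on CD-LFD with a median of 23.6, and 9.7 to 25.0 on CD-HFD with a median of 21.4. Ripk3KO livers had 13.6 to 31.5 on control with a median of 23.8, then 12.1, 14.5 and 14.0 on CD-LFD, with 20.3, 26.9, 20.2 and 21.5 on CD-HFD. MlklKO livers had 14.6 to 23.1 on control with a median of 19.2, then 15.3, 18.3, 17.8 and 34.7 on CD-LFD, with 27.7, 13.8 and 14.5 on CD-HFD. Only the 3 Ripk3KO CD-LFD libraries stood together at a low level, below all Ripk3KO CD-HFD and all WT CD-LFD libraries. Tfrc passed the test in 0 of the 15 comparisons, with log2 differences for that group of -0.8 ± 0.313 against Ripk3KO control (adjusted p = 0.0574), 0.71 ± 0.329 for CD-HFD over it (adjusted p = 0.184) and -0.75 against WT CD-LFD (adjusted p = 0.309). The first of these was called with clock class as a covariate (adjusted p = 0.0491), in the low clock class (0.0304), with the 2 groups fitted alone (0.0422) and without Ripk3KO control replicate 1 (0.0271). The second was called with the 2 groups fitted alone (0.0075) and with library size alone (0.0487). Both clock class fits hold the same Ripk3KO libraries as the main fit. WT CD-HFD differed from control by -0.34 (adjusted p = 0.261), and was called lower without WT control replicates 5 and 6 (-0.60, adjusted p = 0.0396) and in the low clock class (-0.98, adjusted p = 0.00894). The low clock class also called Tfrc lower in MlklKO than in WT on control (-0.99, adjusted p = 0.0253). The 9 group means spanned 1.84-fold, with no step beyond the larger SD.

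Scara5 encodes a scavenger receptor that binds ferritin and brings in iron without transferrin, and it was the member most different between genotypes. WT livers had 7.49 to 30.0 scaled CPM on control with a median of 16.8, 4.84 to 12.9 on CD-LFD with a median of 5.72, and 5.52 to 13.4 on CD-HFD with a median of 9.09. Ripk3KO livers had 13.0 to 128 on control with a median of 74.4, then 39.2, 55.9 and 27.2 on CD-LFD, with 36.0, 41.3, 38.3 and 34.5 on CD-HFD. MlklKO livers had 50.0 to 80.7 on control with a median of 59.3, then 34.7, 32.2, 26.1 and 18.9 on CD-LFD, with 18.1, 38.6 and 36.4 on CD-HFD. On each diet the knockout libraries lay above every WT library, except on control, where the Ripk3KO range reached into that of WT.

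Against WT on the same diet, Scara5 in Ripk3KO was 3.75-fold higher on control (log2 1.91 ± 0.341, adjusted p = 0.000473), 5.5-fold on CD-LFD (2.46 ± 0.394, adjusted p = 0.000325) and 4.05-fold on CD-HFD (2.02 ± 0.365, adjusted p = 0.00356). In MlklKO it was 3.5-fold higher on control (1.81 ± 0.34, adjusted p = 0.000124) and 3.82-fold on CD-LFD (1.93 ± 0.371, adjusted p = 0.00134). On CD-HFD the MlklKO difference of 1.75 ± 0.392 did not pass (adjusted p = 0.294), in a comparison that called 0.0% of all genes, with 1246 genes at an unadjusted p under 0.05. These directions held with each library left out. The CD-LFD differences were 2.39 in Ripk3KO (adjusted p = 0.122) and 1.86 in MlklKO (adjusted p = 0.403) with clock class as a covariate, where only WT was in the high class. Within the low clock class the control differences were 1.54 in Ripk3KO (adjusted p = 0.115) and 1.45 in MlklKO (adjusted p = 0.0431), and the Ripk3KO difference on CD-HFD was 2.12 (adjusted p = 0.00397). Fitting the compared groups alone ended the Ripk3KO control call (adjusted p = 0.0913). Leaving out the library labelled Ripk3KO control replicate 5 gave 1.62 (adjusted p = 0.00283). Markers of stellate cells and fibroblasts summed to means of 215 scaled CPM in WT control, 176 in Ripk3KO control and 196 in MlklKO control.

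Scara5 was called lower than control on both choline-deficient diets in WT and MlklKO, and on neither in Ripk3KO. In WT it fell 2.46-fold on CD-LFD (log2 -1.3 ± 0.352, adjusted p = 0.00511), a call kept in every setting run for it, which leave out the low clock class, and 1.95-fold on CD-HFD (-0.96 ± 0.348, adjusted p = 0.0207). The second was lost without WT control replicate 1 or 2 (adjusted p 0.0989 and 0.0604), without WT CD-HFD replicate 4 (0.0526) and with library size alone (0.283). In MlklKO it fell 2.26-fold on CD-LFD (-1.17 ± 0.372, adjusted p = 0.0124) and 2.03-fold on CD-HFD (-1.02 ± 0.411, adjusted p = 0.0391), with no overlap with control on either diet. The MlklKO CD-HFD call was lost without MlklKO control replicate 2 or 5 (adjusted p 0.0638 and 0.0665), without CD-HFD replicate 4 (0.0624) or the library labelled MlklKO CD-HFD replicate 1 (-0.77, 0.191), with RLE size factors (0.056) and with library size alone (0.341). In Ripk3KO the CD-HFD difference of -0.85 ± 0.365 did not pass (adjusted p = 0.0527), although it did in the low clock class (0.0371, on the same Ripk3KO libraries) and without Ripk3KO control replicate 1 or 2 (0.027 and 0.0069). The Ripk3KO CD-LFD difference of -0.74 ± 0.406 did not pass either (adjusted p = 0.177), and was called without Ripk3KO control replicate 2 (-0.96, adjusted p = 0.0459). The 9 group means spanned 9.6-fold, from 7.03 in WT CD-LFD to 67.5 in Ripk3KO control, and the 2 steps beyond the larger SD were from WT control to MlklKO CD-LFD, which parts the WT from the knockout groups, and from Ripk3KO CD-LFD to MlklKO control.

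Fth1, the ferritin heavy chain, oxidises iron for storage. WT livers had 1143 to 2006 scaled CPM on control with a median of 1488, 1630 to 2191 on CD-LFD with a median of 1908, and 1618 to 2255 on CD-HFD with a median of 2168. The CD-HFD libraries were mostly above control, with overlap through a single CD-HFD library at 1618. Fth1 rose 1.33-fold on CD-HFD in WT (log2 0.41 ± 0.13, adjusted p = 0.00848). That call was lost when the 2 groups were fitted alone (adjusted p = 0.0547) and in the low clock class (0.245), and the CD-LFD difference of 0.29 ± 0.13 did not pass (adjusted p = 0.0945). The latter was called with DESeq2 (0.32, adjusted p = 0.0267), without WT control replicate 4 (0.37, 0.0359) and with library size alone (0.6, 0.000289).

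In Ripk3KO livers Fth1 was 1233 to 1974 scaled CPM on control with a median of 1607, 2224, 2014 and 2461 on CD-LFD, with 2373, 2216, 2181 and 2098 on CD-HFD. MlklKO libraries had 1187 to 1537 on control with a median of 1379, 2138, 2280, 1894 and 2343 on CD-LFD, with 1875, 1939 and 1854 on CD-HFD. In both knockouts every library on a choline-deficient diet was above every control library. Fth1 rose 1.38-fold on CD-HFD in Ripk3KO (log2 0.47 ± 0.143, adjusted p = 0.00714) and 1.57-fold on CD-LFD in MlklKO (0.65 ± 0.143, adjusted p = 0.000521), and both calls were kept throughout. The rise of 1.39-fold on CD-LFD in Ripk3KO (0.48 ± 0.156, adjusted p = 0.0224) was lost without Ripk3KO control replicate 6 (adjusted p = 0.0575) or CD-LFD replicate 1 or 3 (0.0648 and 0.142), and 6 of 8 other settings kept it (8.1e-05 to 0.0999). The rise of 1.37-fold on CD-HFD in MlklKO (0.46 ± 0.156, adjusted p = 0.0154) was lost without CD-HFD replicate 2 (0.0861) and without the count filter (0.106). The summed macrophage and monocyte markers on control and CD-HFD had means of 78.4 and 948 scaled CPM in WT, 84.5 and 1090 in Ripk3KO, with 67.5 and 1246 in MlklKO. Their part in the Fth1 result was not tested. The 9 group means spanned 1.62-fold and had no step beyond the larger SD.

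Ftl1, the ferritin light chain, rose on CD-LFD in both knockouts, and its differences between CD-HFD and control did not pass the test in any genotype. With library size alone Ftl1 was called higher on CD-HFD than on control in WT (0.47, adjusted p = 0.00841), Ripk3KO (0.48, 0.0145) and MlklKO (0.64, 0.00299). WT livers had 1497 to 3422 scaled CPM on control with a median of 1901, 2129 to 2839 on CD-LFD with a median of 2587, and 1763 to 2408 on CD-HFD with a median of 1985. The WT groups overlapped, and the differences from control were 0.28 on CD-LFD (adjusted p = 0.192) and -0.04 on CD-HFD (adjusted p = 0.873). On CD-LFD the difference was called with clock class as a covariate (0.47, adjusted p = 0.032), without WT control replicate 4 (0.47, 0.0167) and with library size alone (0.59, 0.00234). Ftl1 on CD-HFD against CD-LFD was -0.31 in WT (adjusted p = 0.167), called with clock class as a covariate (-0.69, 0.0137).

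In Ripk3KO livers Ftl1 was 1474 to 2541 scaled CPM on control with a median of 1988, 2967, 2676 and 3135 on CD-LFD, with 1877, 1889, 2164 and 1740 on CD-HFD. MlklKO libraries had 1363 to 1681 on control with a median of 1573, 2609, 2854, 2091 and 2713 on CD-LFD, with 1594, 1823 and 1625 on CD-HFD. In both knockouts the CD-LFD libraries stood above all libraries on the other diets. Ftl1 rose 1.65-fold on CD-LFD in MlklKO (log2 0.72 ± 0.176, adjusted p = 0.00157), a call kept throughout, and 1.47-fold in Ripk3KO (0.55 ± 0.191, adjusted p = 0.0307). The Ripk3KO call was lost without control replicate 3, 5 or 6 (adjusted p 0.0613, 0.071 and 0.0731; replicate 5 is the library with the doubtful label) and without CD-LFD replicate 1 or 3 (0.0866 and 0.137), and was kept in 6 of 8 other settings. In MlklKO the level was 1.53-fold lower on CD-HFD than on CD-LFD (-0.61 ± 0.214, adjusted p = 0.0325), which was lost without CD-LFD replicate 1, 2 or 4 (0.0582, 0.0767 and 0.0686) or without CD-HFD replicate 4 (0.1) or the library labelled MlklKO CD-HFD replicate 1 (0.0873), with library size alone (0.409) and without the count filter (0.0917). The same difference in Ripk3KO was -0.61 ± 0.209 and did not pass (adjusted p = 0.0587). It was called with DESeq2 (adjusted p = 0.0452), clock class as a covariate (0.0367), the low clock class alone (0.0198) and the 2 groups fitted alone (0.0165). The clock class fits hold the same Ripk3KO libraries as the main fit.

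Against WT on control chow, Ftl1 was 1.35-fold lower in MlklKO (log2 -0.43 ± 0.16, adjusted p = 0.0416) with overlap. The call was lost without WT control replicate 2, 4 or 5 (adjusted p 0.0606, 0.236 and 0.0837) and without MlklKO control replicate 1, 2, 4 or 6 (0.0727, 0.0881, 0.0548 and 0.0583), when the 2 groups were fitted alone (0.138) and without the count filter (-0.37, 0.203). The 9 group means spanned 1.88-fold, and 2 steps exceeded the larger SD, from MlklKO CD-HFD to Ripk3KO CD-HFD and from MlklKO CD-LFD to Ripk3KO CD-LFD. Ferritin genes have pseudogene copies with which reads could be shared, and the most counted of them, Ftl1-ps1, had a median of 32 counts in a library.

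Slc40a1 encodes ferroportin, the iron exporter that hepcidin closes. WT livers had 59.9 to 118 scaled CPM on control with a median of 96.9, 58.9 to 118 on CD-LFD with a median of 77.5, and 61.8 to 98.6 on CD-HFD with a median of 66.0. Ripk3KO livers had 73.1 to 129 on control with a median of 104, then 73.5, 81.4 and 80.4 on CD-LFD, with 69.8, 82.6, 97.1 and 107 on CD-HFD. MlklKO livers had 28.3 to 97.7 on control with a median of 51.6, then 57.6, 75.7, 60.3 and 84.6 on CD-LFD, with 114, 57.0 and 88.5 on CD-HFD. The diet groups overlapped within each genotype, and the MlklKO control libraries included the lowest value of all, 28.3. Slc40a1 was 1.59-fold lower in MlklKO than in WT on control chow (log2 -0.67 ± 0.207, adjusted p = 0.0138). That call was lost with clock class as a covariate (adjusted p = 0.0905) and when the 2 groups were fitted alone (0.0692). Without WT control replicates 5 and 6, the WT CD-HFD difference from control was called at -0.57 (adjusted p = 0.0239). Library size alone called MlklKO CD-HFD above CD-LFD (0.69, adjusted p = 0.0313), where the TMM value was 0.32 (adjusted p = 0.422). No step in the order of its 9 group means, from 58.2 in MlklKO control to 98.9 in Ripk3KO control, exceeded the larger SD.

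**Figure D2:**
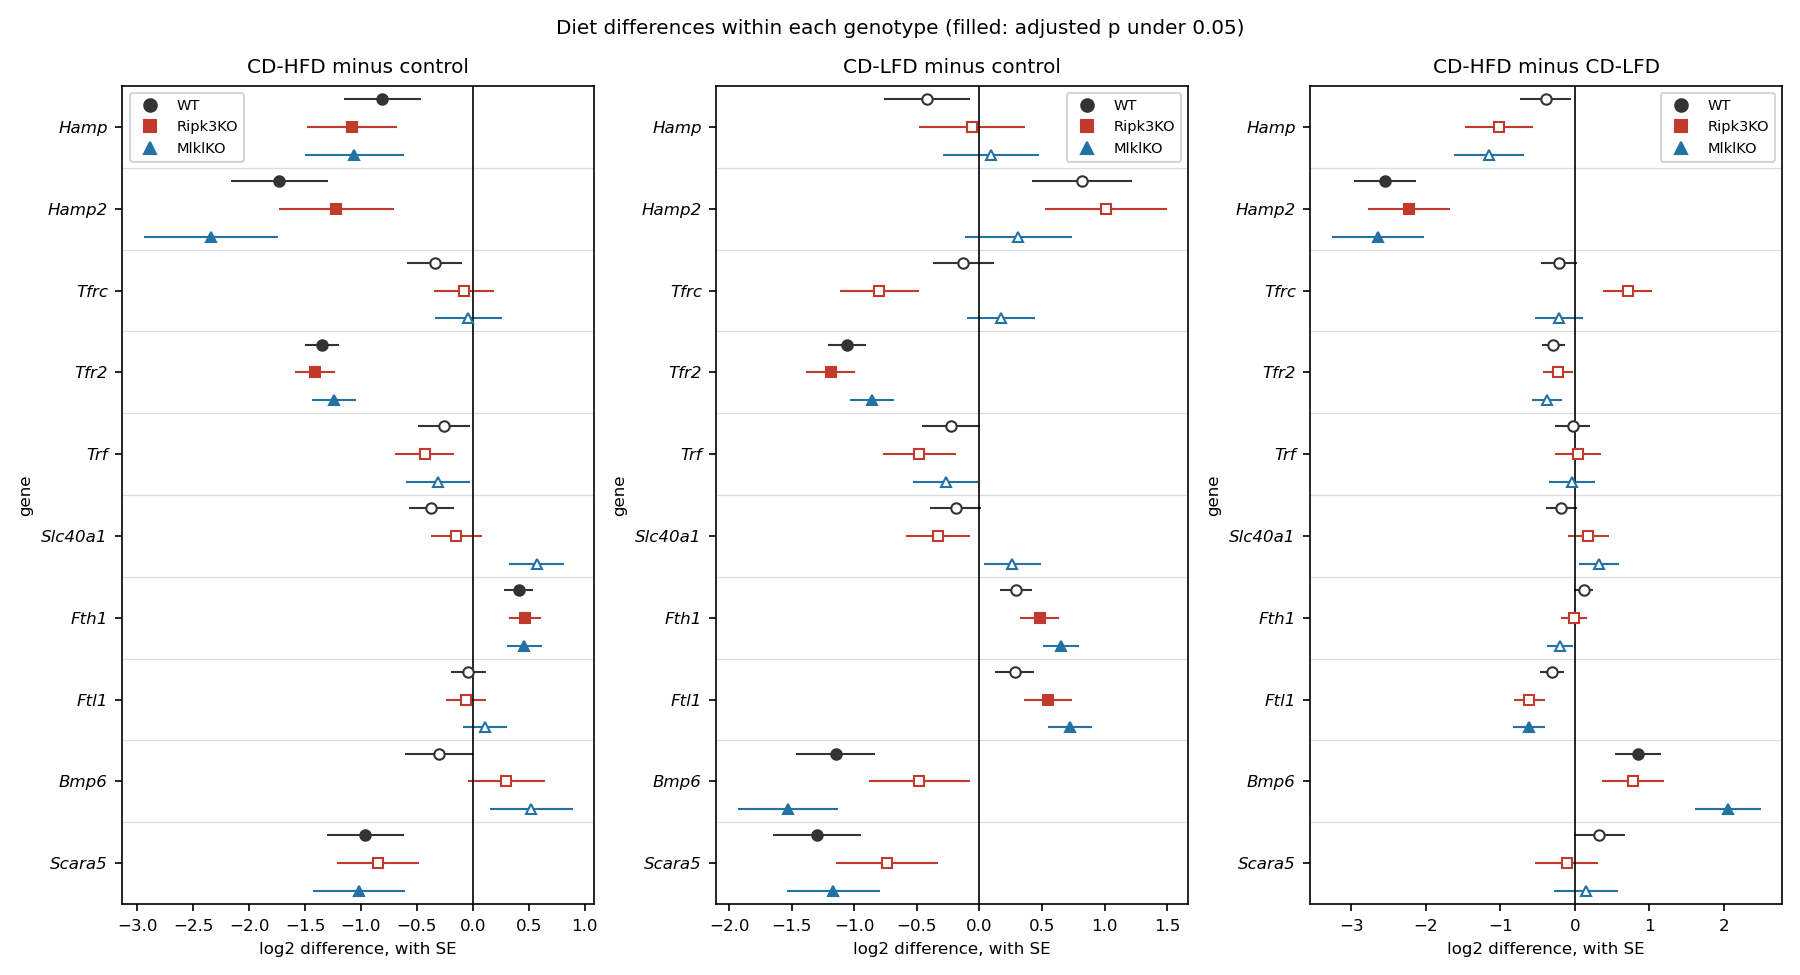
Log2 difference of each of the 10 genes for CD-HFD against control, CD-LFD against control and CD-HFD against CD-LFD in each genotype, with bars of 1 standard error and filled points for adjusted p under 0.05. Tfr2 is filled and below 0 against control in all genotypes on both diets, and Hamp2 is filled and below 0 in all CD-HFD comparisons.

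Counted by comparison, 5 of the 10 genes were called between WT CD-HFD and WT control, where 47.7% of all tested genes were called. Fth1 rose and Hamp, Hamp2, Tfr2 and Scara5 fell, and the median log2 difference was -0.35 over the 10 genes and -0.07 over all genes. WT CD-LFD against control called 3 of 10 (Tfr2, Bmp6 and Scara5, all lower) at a background of 27.7%, and WT CD-HFD against CD-LFD called 2 of 10 (Bmp6 higher, Hamp2 lower) at 21.1%. In Ripk3KO, 4 of 10 were called on CD-HFD against control (Fth1 higher; Hamp, Hamp2 and Tfr2 lower; background 46.3%), 3 of 10 on CD-LFD (Fth1 and Ftl1 higher, Tfr2 lower; 24.1%) and 1 of 10 between the choline-deficient diets (Hamp2 lower on CD-HFD; 8.83%). In MlklKO, 5 of 10 were called on CD-HFD (Fth1 higher; Hamp, Hamp2, Tfr2 and Scara5 lower; 45.2%) and 5 of 10 on CD-LFD (Fth1 and Ftl1 higher; Tfr2, Bmp6 and Scara5 lower; 37.9%). Between its choline-deficient diets MlklKO had 3 of 10 called (Bmp6 higher on CD-HFD, Hamp2 and Ftl1 lower; 23.7%). The shares of the 10 genes called on CD-HFD against control were near the share of all genes. Scaled by library size alone, the same WT comparison split 6813 higher and 1020 lower, against 3496 and 3586 with TMM. The comparisons on one genotype share their control libraries.

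Between genotypes, 1 of 10 was called in Ripk3KO against WT on control (background 4.47%), on CD-LFD (1.1%) and on CD-HFD (0.377%), and each time it was Scara5, higher. MlklKO against WT called 3 of 10 on control (Scara5 higher, Slc40a1 and Ftl1 lower; 27.1%), 1 of 10 on CD-LFD (Scara5 higher; 2.56%) and 0 of 10 on CD-HFD by edgeR (0.0%). At an unadjusted p under 0.05, 2 of the 10 passed in that last comparison, against 1246 of all 14862 genes. The other scalings, RLE size factors and library size alone, called 0 there too.

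**Figure D3:**
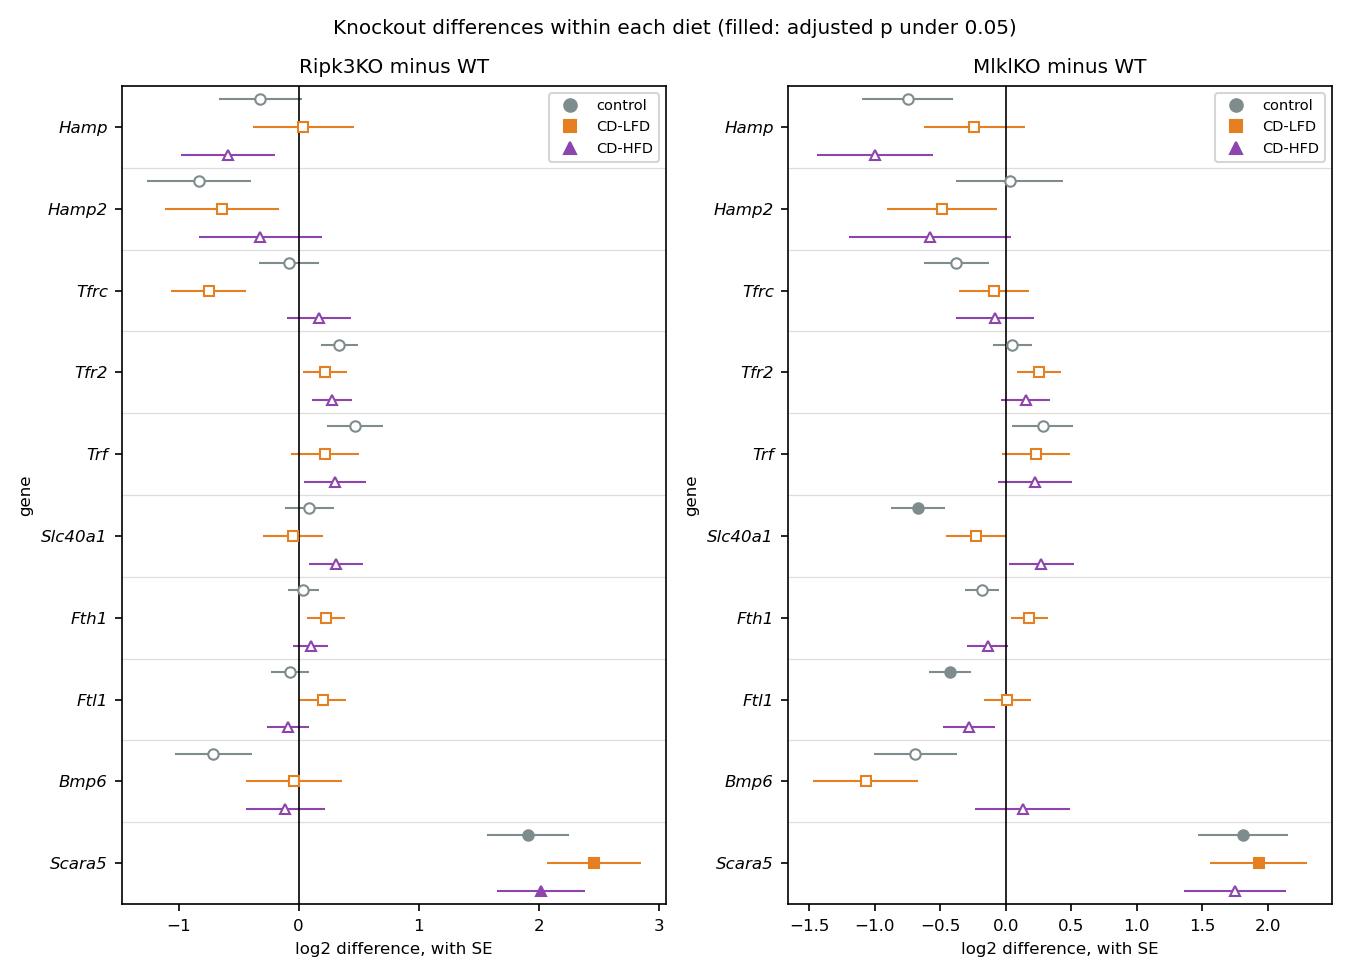
Log2 difference of each of the 10 genes between each knockout and WT on the same diet, with bars of 1 standard error and filled points for adjusted p under 0.05. Scara5 lies between 1.75 and 2.46 in all 6 comparisons and is filled in 5.

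Whether a knockout changed the response to a diet was tested as an interaction, the difference between the knockout's and the WT's log2 change. The edgeR test called 0 of the 10 genes for Ripk3KO on CD-LFD (background 0.0269%), Ripk3KO on CD-HFD (0.478%), MlklKO on CD-LFD (8.45%) and MlklKO on CD-HFD (4.12%). At an unadjusted p under 0.05 the counts were 0, 0, 0 and 1, against 1230, 1624, 3557 and 2783 of all 14862 genes. The 1 gene was Slc40a1 in MlklKO on CD-HFD, with an interaction of 0.94 ± 0.321 (adjusted p = 0.0823), from log2 changes of 0.57 ± 0.246 in MlklKO (adjusted p = 0.055) and -0.37 ± 0.205 in WT (adjusted p = 0.137). The MlklKO change was called with RLE size factors (0.63, adjusted p = 0.0261), DESeq2 (0.63, 0.0242) and library size alone (1.09, 0.000137), and without MlklKO control replicate 4 or 6 (0.0454 and 0.00611) or CD-HFD replicate 2 (0.026). The interaction passed with DESeq2 (adjusted p = 0.0475), without WT control replicates 5 and 6 (1.14, adjusted p = 0.0246) and without MlklKO control replicate 6 (1.15, adjusted p = 0.012). For Tfr2 the 4 interactions lay between -0.12 and 0.2, with standard errors of 0.226 to 0.239. For Scara5 they lay between -0.06 and 0.55, with standard errors of 0.494 to 0.533, and for Hamp2 between -0.61 and 0.51, with standard errors of 0.585 to 0.741. At these errors an unequal response could go uncalled even when it was well above 1 standard error, as the Slc40a1 value did.

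Genes of the surrounding iron pathways were taken from 6 lists that exclude the 10 genes. Of all genes tested between WT CD-HFD and control, 23.5% were higher and 24.1% lower, and the list counts for this comparison stand against those shares. The directions of these counts depend on the scaling, since library size alone moved the median log2 difference of all genes from -0.07 to 0.43. Of 14862 genes, library size alone called 6813 higher and 1020 lower, and clock class as a covariate 3492 and 3040. The low clock class called 3613 and 3139 of 14989, and the fit without WT control replicates 5 and 6 called 4187 and 3974 of 14804. Without the count filter it was 3867 and 2777 of 35249, and with the 2 groups fitted alone 2596 and 2299 of 12937. List counts under these settings stand against those shares. Of 17 tested genes that control hepcidin through BMP and SMAD, 5 fell and 0 rose between WT CD-HFD and control (median log2 -0.32, against -0.07 over all genes). They included Tmprss6, the protease that cuts hemojuvelin (566 to 266 scaled CPM, log2 -1.09 ± 0.192, adjusted p = 9.87e-06). With library size alone this list had 5 higher and 1 lower, with clock class as a covariate 3 lower, and without WT control replicates 5 and 6 it had 9 lower. The calls of Bmp2 (-0.32, adjusted p = 0.24) and Acvr2a (-0.26, adjusted p = 0.318) were among those lost with library size alone. Of 7 tested genes of inflammatory control, only Il1b, a cytokine, was called, falling from 5.52 to 2.14 scaled CPM (log2 -1.35, adjusted p = 0.00496). That call was lost in the low clock class (0.1, adjusted p = 0.908), with clock class as a covariate (-0.73, 0.275) and with library size alone (-0.91, 0.0521). The list had 2 higher and 0 lower with library size alone, and 1 higher and 4 lower without WT control replicates 5 and 6. Of 6 genes of iron sensing and ferritin turnover, 3 fell. They were the iron regulatory proteins Aco1 (254 to 125, adjusted p = 0.000267) and Ireb2 (90.6 to 48.4, adjusted p = 3.65e-06), and Ncoa4, which delivers ferritin for breakdown (66.3 to 31.2, adjusted p = 0.0137). The Ncoa4 call was lost with library size alone (0.169) and with the 2 groups fitted alone (0.0689), and library size alone gave 3 of the 6 genes higher and 2 lower.

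Haem and haemoglobin genes changed in both directions, with 6 of 14 higher and 6 of 14 lower in WT CD-HFD, against 23.5% and 24.1% of all genes. With library size alone 7 were higher and 1 lower, and with clock class as a covariate or in the low clock class 4 were higher. Hmox1, the enzyme that opens haem and frees its iron, rose from 12.9 ± 3.72 to 58.6 ± 15.9 scaled CPM (SD, n = 6 each; log2 2.16, adjusted p = 3.5e-08). Hmox1 also rose on CD-HFD in Ripk3KO (1.0, adjusted p = 0.00442, a comparison chosen after its value was seen) and MlklKO (1.49, adjusted p = 0.000107), with no overlap with control in any genotype. Flvcr1, a haem exporter, rose by 1.73 (adjusted p = 2.67e-07) and Slc48a1, which moves haem out of lysosomes, by 0.93 (adjusted p = 2.89e-07) in WT. Cd163, the macrophage receptor for haemoglobin bound to haptoglobin, had 5.87 to 13.5 scaled CPM in WT control livers and 0 to 3 counts in each WT CD-HFD library. The Kupffer cell markers, of the resident liver macrophages, summed to 503 scaled CPM in WT control and 255 in WT CD-HFD, and the general macrophage and monocyte markers to 78.4 and 948. Their part in the haem gene results was not tested.

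Of 7 tested genes of iron import, reduction and export, 2 rose and 1 fell in WT CD-HFD (all genes, 23.5% and 24.1%), among them Heph, a ferroxidase, at 0 to 8 counts in control and 11 to 42 on CD-HFD (adjusted p = 0.000781). With library size alone 4 were higher and 1 lower, and 1 was higher without the count filter, with the 2 groups fitted alone or without WT control replicates 5 and 6. Of 9 mitochondrial iron and iron-sulfur genes, 3 fell, near the 24.1% of all genes, including Cisd1, an iron-sulfur protein of the outer mitochondrial membrane (195 to 78.2 scaled CPM, log2 -1.32, adjusted p = 7.09e-06). With library size alone 1 was higher and 1 lower, and the calls of Isca1 (-0.11, adjusted p = 0.633) and Nfs1 (0.0, adjusted p = 0.992) were lost.

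The inflammatory branch differed between genotypes on control chow. In MlklKO against WT, all 7 tested genes of inflammatory control were called, 6 higher and 1 lower (median log2 1.19, against -0.06 over all genes). Of all genes tested in that comparison 27.1% were called, 13.0% higher and 14.1% lower. With clock class as a covariate 5 inflammatory genes were higher and 0 lower, and in the low clock class 4 and 0. Over all genes the covariate fit called 1448 higher and 1080 lower of 14862, and the low clock class 1027 and 878 of 14989. Socs3, the feedback inhibitor of STAT3 signalling, had means of 104 and 14.8 scaled CPM (log2 2.84, adjusted p = 1.52e-06). Il1b was lower by 1.59 on the log2 scale, a call lost with clock class as a covariate (-0.85, adjusted p = 0.342) and in the low clock class (-0.19, adjusted p = 0.884). In the same comparison Hamp had a log2 difference of -0.75 (adjusted p = 0.102). It was called lower without WT control replicate 3 (-0.92, adjusted p = 0.0391) or MlklKO control replicate 5 (-1.08, adjusted p = 0.0198), while it was 0.02 without WT control replicates 5 and 6 (adjusted p = 0.981). Of the BMP and SMAD genes 5 were lower and 1 higher, with Smad7, a SMAD inhibitor induced by BMP signals, at 9.26 ± 1.16 against 23.7 ± 2.81 scaled CPM (SD, n = 6 each; log2 -1.36, adjusted p = 3.92e-07) and Id1, another target of BMP signals, lower by 2.88-fold (adjusted p = 0.00201). The BMP and SMAD counts were 3 lower and 1 higher with clock class as a covariate, and 2 lower and 0 higher in the low clock class. The groups did not overlap for Smad7, which was singled out in this comparison after its values were seen. In Ripk3KO against WT control, 4 of 7 inflammatory genes were called, 3 higher, and 1 of the 17 BMP and SMAD genes, at a background of 4.47%. The inflammatory count was 1 with clock class as a covariate, 2 without WT control replicates 5 and 6, and 0 in the low clock class or with the 2 groups fitted alone. Those settings called 123 of 14862, 352 of 14804, 139 of 14989 and 45 of 11268 tested genes in turn. Fits with 1 library left out moved the inflammatory count too. It was 1 without Ripk3KO control replicate 3 and 2 without WT control replicate 1 or 6. Among the 4, the Socs3 difference of 1.33 (adjusted p = 0.0361) was lost with clock class as a covariate (0.0598), in the low clock class (0.0533), with library size alone (0.0666), with the 2 groups fitted alone (0.207) and without any one of WT control replicates 1 to 4 or Ripk3KO control replicates 3 to 6 (0.0568 to 0.093). The Il1b difference of -1.57 (adjusted p = 0.0232) was lost with clock class as a covariate (0.614), in the low clock class (0.931), with the 2 groups fitted alone (0.165), without WT control replicate 6 alone (0.0899) or with replicate 5 (0.133), and without Ripk3KO control replicate 3 (0.0583). The 1 BMP and SMAD gene was Hjv, which encodes hemojuvelin, at -0.73 (adjusted p = 0.0392). Its difference was -0.31 with clock class as a covariate (adjusted p = 0.721), 0.03 in the low clock class (0.98) and -0.37 without WT control replicates 5 and 6 (0.415). The Hjv call was also lost with the 2 groups fitted alone (0.317) and without WT control replicate 3, 5 or 6 (0.0651, 0.117 and 0.165) or Ripk3KO control replicate 3, 4, 5 or 6 (0.117, 0.101, 0.0977 and 0.0941).

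Steap4, a metalloreductase that reduces iron for uptake, stood high in knockout livers on control chow. Its mean was 87.5 ± 54.2 scaled CPM in WT control, 925 ± 647 in Ripk3KO control (log2 3.39, adjusted p = 6.42e-05) and 1159 ± 854 in MlklKO control (3.72, adjusted p = 2.41e-06; SD, n = 6 each). The MlklKO libraries did not overlap WT, while the Ripk3KO libraries did, and the Ripk3KO call was lost in the low clock class (adjusted p = 0.0757). On CD-LFD the means were 68.1, 104 and 74.3 scaled CPM in WT, Ripk3KO and MlklKO, and on CD-HFD 159, 173 and 203. The interaction of MlklKO with CD-LFD was -3.6 (adjusted p = 0.00247), and that of MlklKO with CD-HFD was -3.37 (adjusted p = 0.0138). The second was lost in the low clock class (-2.68, adjusted p = 0.0921) and without MlklKO CD-HFD replicate 2 (0.057) or 4 (0.0542). The interaction of Ripk3KO with CD-HFD was -3.27 (adjusted p = 0.0281). It was lost with clock class as a covariate (0.0548), in the low clock class (0.169), with the compared groups alone (0.0999), and without WT CD-HFD replicate 3, Ripk3KO control replicate 3, 4 or 6 or any one Ripk3KO CD-HFD library (0.0525 to 0.0821). With CD-LFD the Ripk3KO interaction was -2.79 and did not pass (adjusted p = 0.267). For Smad7 the interaction of MlklKO with CD-HFD was 1.43 (adjusted p = 0.00123), as its mean in MlklKO was 9.26 on control, 14.5 on CD-LFD, with 21.5 on CD-HFD while WT had 23.7, 19.1 and 20.5. For Socs3 it was -2.92 (adjusted p = 0.00524).

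**Figure D4:**
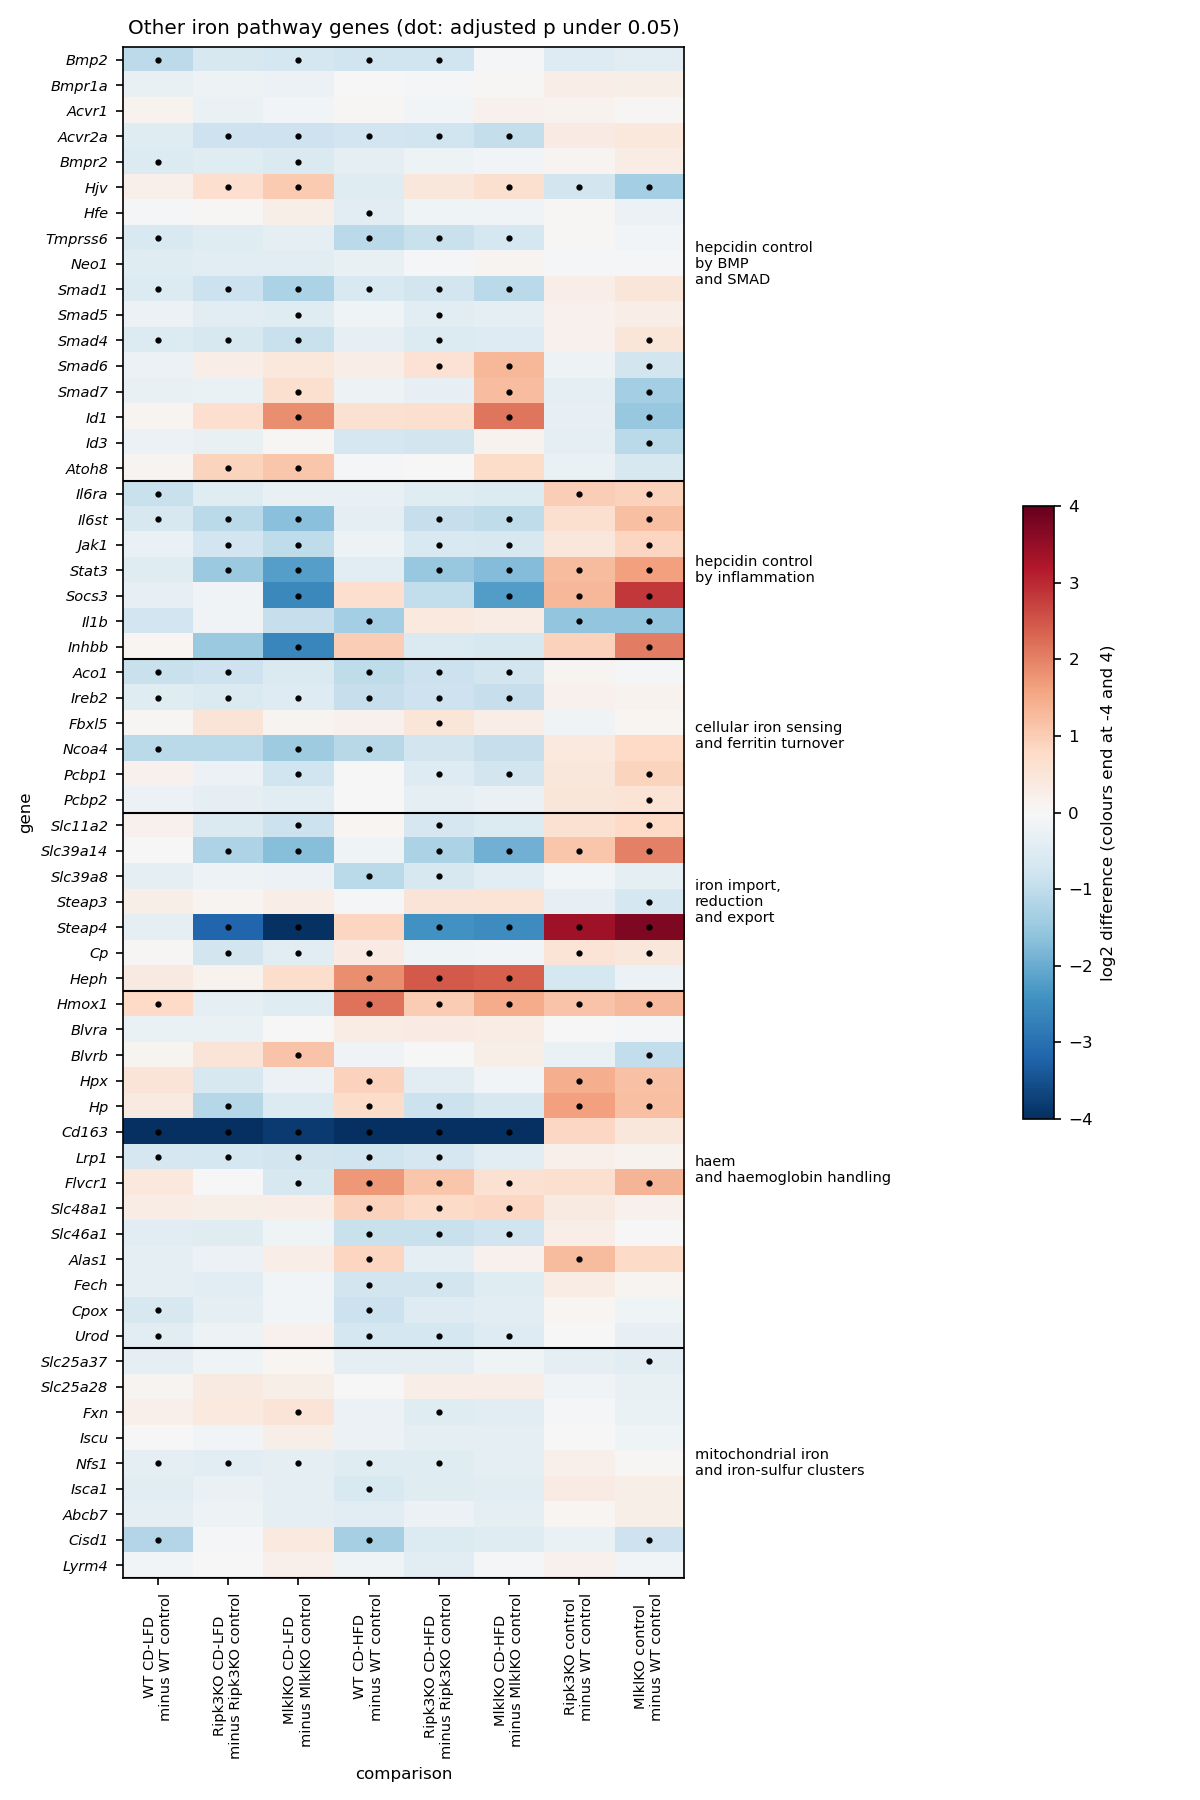
Log2 differences, as colours, of the tested genes of the 6 iron pathway lists (rows) for each choline-deficient diet against control within each genotype and for each knockout against WT on control chow (columns); a dot marks adjusted p under 0.05, and colours end at -4 and 4. Hmox1 and Heph are red in all 3 CD-HFD columns, and Steap4 and Socs3 are red in both knockout columns, at 3.72 and 2.84 in MlklKO.

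The genes whose pattern over the 44 libraries was most like each member were ranked by Pearson's r of log2 scaled CPM among 11112 genes. These libraries share groups and processing, so the values are descriptions. Tfr2 was most like Slc27a5 (r = 0.965), Aldh1l1 (0.963) and Masp2 (0.959), and Trf most like Cfi (0.929), Prep (0.926) and Pgk1 (0.912). Hamp was closest to Atp5o (0.858), Snhg8 (0.857) and Ndufa3 (0.854), while Hamp2 was closest to Chrna4 (0.837), Gckr (0.799) and Tmie (0.772). Hamp and Hamp2 themselves had r = 0.41. Fth1 was closest to Gpx4 (0.89), Tspo (0.873) and Ctsz (0.846), and Ftl1 to Coa3 (0.867), Spp2 (0.848) and Mrpl27 (0.837). Scara5 was closest to Map1lc3b (0.864), Fkbp5 (0.839) and Gfra1 (0.83). Slc40a1 (Atl3, 0.768), Bmp6 (Add3, 0.729) and Tfrc (Foxn2, 0.628) had weaker nearest genes.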

How the data were processed

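Total RNA of 44 whole-liver samples was sequenced from directional libraries. Per the submitters' processing notes, FastQC, STAR, HTSeq, edgeR and limma and the build GRCm39 (mm39) were used, with versions and the strand setting of the counting not given in the sources used here. The deposited table holds raw counts per gene made by the authors, and 34373 of 35249 IDs were matched to a symbol.

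Counts were filtered with filterByExpr (minimum count 10; 14862 genes, 99.8% of counts), scaled by TMM (factors 0.799 to 1.34) and tested with edgeR 4.0.16 in R 4.3.3 over 9 groups and 19 contrasts, with p-values adjusted per contrast. The fit was also run on simulated data, and the outcome is not given here. Other settings tried were DESeq2 1.42.0, scaling by RLE size factors or by library size alone, testing without the count filter, fitting the compared groups alone, a replicate block, clock class as a covariate, the larger clock class alone, WT control replicates 5 and 6 left out together, and each replicate left out. Genes named from the pathway lists were the called ones with the largest log2 change, up to 3 in each direction in WT CD-HFD against control and 1 in other contrasts, and 3 nearest genes were named per member. The members, lists and tests were chosen with earlier results of these data known. Promoters come from RefSeq (GRCm38.p6); 7 of 10 members had a window.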

Additional observations from a re-analysis of the deposited data

Results flagged for a closer look

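In 70 sets of 4 to 6 libraries (1 gene in 1 group each), 6 held a library far from the rest by Dixon's criterion, where chance flags about 1 in 20. Tfrc in MlklKO CD-LFD replicate 4 was 34.7 scaled CPM, and the next library had 18.3. Trf in Ripk3KO CD-HFD replicate 1 was 12068, and the next had 16378. Slc40a1 and Bmp6 were both highest in WT CD-HFD replicate 3, at 98.6 against 74.8 and 6.65 against 4.54, and that library was the only WT CD-HFD library in the high clock class. Fth1 was lowest in WT CD-HFD replicate 1, at 1618 against 2050. Scara5 was highest in WT CD-LFD replicate 3, the deepest library, at 12.9 against 7.61.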

How the results depend on the processing

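No called value of the 10 genes turned in direction under the alternatives run, but Hamp in WT CD-HFD against control went to about 0. It was -0.0 in the low clock class and -0.05 without WT control replicates 5 and 6. Some called differences of the listed pathway genes did turn and lost their call, among them in the low clock class Il1b in WT CD-HFD against control (-1.35 to 0.1) and Hjv in Ripk3KO against WT on control (-0.73 to 0.03), and with library size alone Nfs1 in Ripk3KO CD-HFD against control (-0.49 to 0.04). Library size alone moved the median log2 difference of all genes to 0.43 for WT CD-HFD against control, from -0.07, and changes with it are relative to that shift. Fitting only the compared groups gave 3 called iron genes for WT CD-HFD against control, 4 for Ripk3KO and 5 for MlklKO CD-HFD against CD-LFD, and 0 for Ripk3KO and 1 for MlklKO against WT on control. Those fits called 4895 of 12937, 2821 of 13724, 4490 of 13129, 45 of 11268 and 1739 of 11406 tested genes in turn. For Ripk3KO CD-HFD against CD-LFD, DESeq2, clock class as a covariate, the low clock class alone, library size alone and the replicate block each gave 2. They called 1554 of 14860, 1423 of 14862, 1869 of 14989, 1531 of 14862 and 1377 of 14862 tested genes in turn. The low clock class alone gave 0 for Ripk3KO against WT on control (139 of all 14989 genes). Clock class as a covariate gave 0 on CD-LFD for both knockouts (7 of all 14862 genes for Ripk3KO and 1 for MlklKO). Without the count filter, 1 gene was called for WT CD-HFD against CD-LFD and 1 for Ripk3KO CD-LFD against control (2748 and 2795 of all 35249 genes). Library size alone gave 6 for WT CD-LFD against control (4879 of all 14862 genes). The replicate block gave 3 for MlklKO CD-HFD against control (7058 of all 14862 genes). Same-numbered samples did not deviate together (median r -0.0114 over 146 pairs), so they share only a number. With the block, Hamp (adjusted p = 0.0664) and Scara5 (0.0631) in MlklKO and Hamp2 (0.0514) in Ripk3KO were not called on CD-HFD against control, and Hamp in MlklKO (0.0383) and Ftl1 in Ripk3KO (0.0458) were called between the choline-deficient diets. The block also ended the Hjv call in Ripk3KO against WT on control (0.0604). For MlklKO and CD-HFD, DESeq2 and the fit without WT control replicates 5 and 6 each called 1 interaction (968 of all 13707 and 993 of all 14804 genes). The cause of these moves was not tested.

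With each library left out in turn, the counts ran from 3 to 5 for both WT diets against control, 1 to 2 for WT CD-HFD against CD-LFD, 2 to 4 and 1 to 4 for Ripk3KO on CD-HFD and CD-LFD, 3 to 6 for MlklKO on CD-HFD, 2 to 3 for MlklKO between the choline-deficient diets, 2 to 4 and 1 to 2 for MlklKO against WT on control and CD-LFD, and 0 to 1 for its interaction with CD-HFD. Depth limits Hamp2 (4 to 392 counts) and Bmp6 (2 to 221 counts) most.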
